A study of Bos taurus with 14 samples.

Results

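This report concerns the miRNAs bta-miR-320a, bta-miR-320b, bta-miR-484 and bta-miR-1249 in blood leukocytes, termed peripheral white blood cells (PWBC), from beef cattle. They were chosen by name, as miRNAs whose precursors are held to bypass a step of the usual processing route or to be mirtron-like, and that rule uses no measured value. All 4 were among the 1030 mature miRNA names of the count table, and 3 of them were among the 341 miRNAs that passed the filter on low values. The blood came from 14 Angus-Simmental crossbred heifers and was drawn at weaning, and each heifer gave 1 small RNA library. The fertile group (FH, n = 7) later became pregnant to artificial insemination, whereas the subfertile group (SFH, n = 7) was not pregnant after insemination and a natural service season. No heifer received an experimental treatment, and heifers that conceived to natural service were not analysed here. The study asked whether miRNA levels at weaning differ between heifers by their later breeding outcome.

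Most miRNAs are cut from a long transcript by the nuclease Drosha with its partner DGCR8, and the exported hairpin is then cut by Dicer. In mammals, the hairpin of miR-320a begins at the transcription start itself and carries a cap, so that it does not need Drosha but still needs Dicer, and miR-484 was likewise found not to need Drosha. A mirtron is a short intron whose ends are set by splicing instead of Drosha. Count tables hold mature reads only, so the processing route of each member in these heifers was not measured, and each member was listed with a single arm (0 entries for the opposite arm). Cattle sequences for the members were not used here.

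Genes around the precursors were looked up in RefSeq for ARS-UCD2.0. Reads had been mapped to an earlier assembly, so no coordinates are given. bta-miR-320a had 2 precursor genes. *MIR320A-1* overlapped no other gene, with *PHYHIP* and *POLR3D*, a subunit of RNA polymerase III, as its nearest protein-coding genes. *MIR320A-2* lay inside *RNF180*, a ubiquitin ligase gene. The precursor of bta-miR-484 overlapped no gene and lay between *MARF1* and *NDE1*, which acts in spindle and nuclear movement. The precursor of bta-miR-1249 lay inside *KIAA0930*, and that of bta-miR-320b overlapped no gene. Whether the overlaps are exonic or intronic was not analysed here.

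Each library held between 1754971 and 5468341 mature miRNA counts, and FH heifer 25, which recurs below, had 4732913. Levels are given as the deposited CPM, counts scaled to the total over the 341 retained miRNAs, and the groups were compared after TMM scaling, which corrects library totals for differences in composition. CPM is a share of reads, and since adapter ligation favours some miRNAs, an order of levels between miRNAs is an order of read numbers. In bulk PWBC, fewer cells of a type and less of a miRNA per cell cannot be told apart.

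As a sum, the leukocyte miRNAs were abundant in all 14 heifers. The sum of bta-miR-142-3p, bta-miR-142-5p, bta-miR-155 and bta-miR-146a was 11802 to 28960 CPM in FH and 15613 to 30673 CPM in SFH. Most of it came from bta-miR-142-5p and bta-miR-155, with means of 12265 and 8027 CPM. The means of bta-miR-146a and bta-miR-142-3p were 1092 and 148 CPM. The lymphocyte miRNAs bta-miR-150 and bta-miR-342 summed to 42775 to 108052 CPM. The myeloid bta-miR-223 reached 11921 to 26640 CPM. Red cell miRNAs were present at 1463 to 9236 CPM (bta-miR-451 and bta-miR-486, while bta-miR-144 did not pass the filter). Platelet miRNAs were low, at 24.9 to 119 CPM for 3 of 4 markers, of which 2 had no count in at least 1 heifer. For the 5 marker sums, the group difference stayed within the variation among heifers (exact permutation tests, two-sided, lowest p = 0.245, n = 7 per group).

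bta-miR-320a was the most abundant member and ranked 30 of the 341 miRNAs by mean CPM, with 0.880% of all counts. In FH it ranged from 3973 CPM in heifer 22 to 21624 CPM in heifer 25, with a median of 7615 CPM. In SFH it ranged from 4071 CPM in heifer 28 to 10312 CPM in heifer 23, with a median of 6824 CPM. On deposited CPM, SFH heifers 21 and 23 lay above every FH heifer other than heifer 25. After TMM scaling, FH heifer 29 (10058 CPM) also lay above both of them (9848 and 9806 CPM). Heifer 25 lay far above all the other 13. Its count of 102318 had an exact Poisson 95% interval of 101692 to 102947, so counting error was small beside the gap to the next FH heifer, at 8335 CPM. The 2 entries of bta-miR-320a in the count table, 1 per precursor, were identical in every heifer, so the counts do not separate the precursors, and 1 entry was used.

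bta-miR-484 ranked 83 of the 341 miRNAs and varied least of the members. FH heifers lay between 450 CPM in heifer 29 and 1124 CPM in heifer 25, with a median of 684 CPM. SFH heifers lay between 609 CPM in heifer 26 and 954 CPM in heifer 32, with a median of 794 CPM. All SFH heifers lay within the FH range, and FH heifers 20 (1076 CPM) and 25 lay above every SFH heifer.

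bta-miR-1249 ranked 116 of the 341. Its highest and lowest heifers differed by a ratio of 15.0, compared with 5.44 for bta-miR-320a. The 15.0 rested on SFH heifer 28, and without that heifer the ratio was 3.98. Without FH heifer 25, its own far heifer, bta-miR-320a had a ratio of 2.60. The FH values ran from 154 CPM in heifer 27 to 611 CPM in heifer 25, with a median of 209 CPM. The SFH values ran from 40.6 CPM in heifer 28 to 346 CPM in heifer 23, with a median of 188 CPM. FH heifers 25 and 29 (390 CPM) were above every SFH heifer, while the low value of SFH heifer 28 rested on 125 counts (exact Poisson 95% interval 104 to 149). The next lowest SFH heifer, heifer 32, had 165 CPM, so the low level of heifer 28 was outside counting error. These intervals cover counting error only, since PCR copies were not removed.

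**Figure D1:**
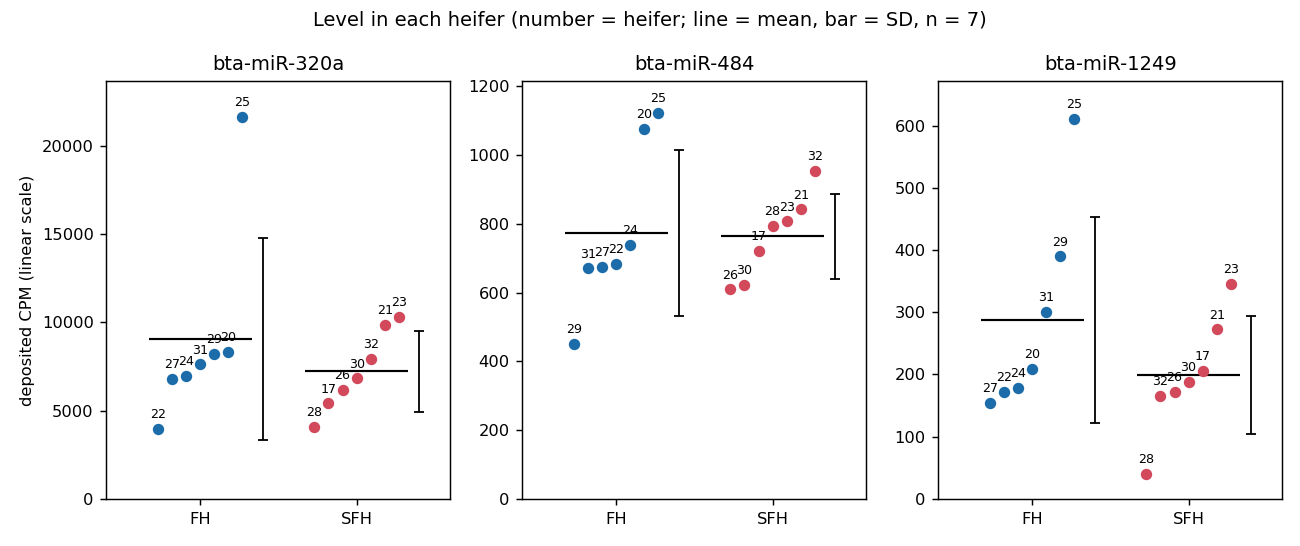
Deposited CPM (linear axes from 0) of bta-miR-320a, bta-miR-484 and bta-miR-1249 in each FH and SFH heifer, numbered by heifer, with the group mean as a line and the SD as a bar (n = 7 per group). FH heifer 25 is the highest point in all 3 panels, at 21624, 1124 and 611 CPM, and SFH heifer 28 is the lowest for bta-miR-1249 at 40.6 CPM.

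bta-miR-320b, whose name places it in the same family as bta-miR-320a, was close to absent. It had 4 counts in SFH heifer 21 and 0 counts in the other 13 heifers. A count of 0 allows up to about 3 counts as a one-sided 95% limit, or 0.549 to 1.71 CPM in these heifers. The exact two-sided Poisson 95% interval for 0 counts reaches 3.69. In heifer 21 bta-miR-320b made up 0.0152% of the counts on bta-miR-320a and bta-miR-320b together (exact Clopper-Pearson 95% interval 0.00415 to 0.0390%). In the heifers at 0, the limit of 3 counts corresponds to a share of 0.00293 to 0.0413%. The mean share was 0% in FH and 0.00218% in SFH, and with a count in 1 heifer alone no test could tell the groups apart. bta-miR-320b did not pass the filter and is left out of the group comparison. Members of 1 family are close in sequence, so the split of reads between them is uncertain.

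The order bta-miR-320a, bta-miR-484, bta-miR-1249, bta-miR-320b held in all 14 heifers. The ratio of bta-miR-320a to bta-miR-484 was 5.13 to 19.2 (median 10.1), and that of bta-miR-484 to bta-miR-1249 was 1.15 to 19.5 (median 3.53). The 19.5 was SFH heifer 28, and the next highest was 5.77 in heifer 32. Thus bta-miR-484 and bta-miR-1249 came closest in FH heifer 29. None of the ratios differed between FH and SFH (exact two-sided permutation tests on the log2 ratio, lowest p = 0.242, n = 7 per group).

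The members also differed in how much heifers of 1 group varied. The within-group SD of log2(TMM-normalized CPM + 0.5) was 0.64 for bta-miR-320a, 0.31 for bta-miR-484 and 0.89 for bta-miR-1249. Of the 116 miRNAs at least as abundant as bta-miR-1249, whose median SD was 0.41, bta-miR-1249 had the 4th highest spread, bta-miR-320a the 18th and bta-miR-484 the 84th. bta-miR-1249 was the least abundant of this set, and spread falls with abundance, so its place there is not a comparison at equal abundance. Over all 341 retained miRNAs, whose median SD was 0.91, the places were 173 for bta-miR-1249, 213 for bta-miR-320a and 307 for bta-miR-484. The spread of bta-miR-320a included heifer 25, without which the FH SD fell from 5725 to 1604 CPM and the log2 SD was 0.47, at place 35 of the 116. Without SFH heifer 28 the log2 SD of bta-miR-1249 was 0.65, at place 15 of the 116. Both alternatives were chosen after the values were seen.

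**Figure D2:**
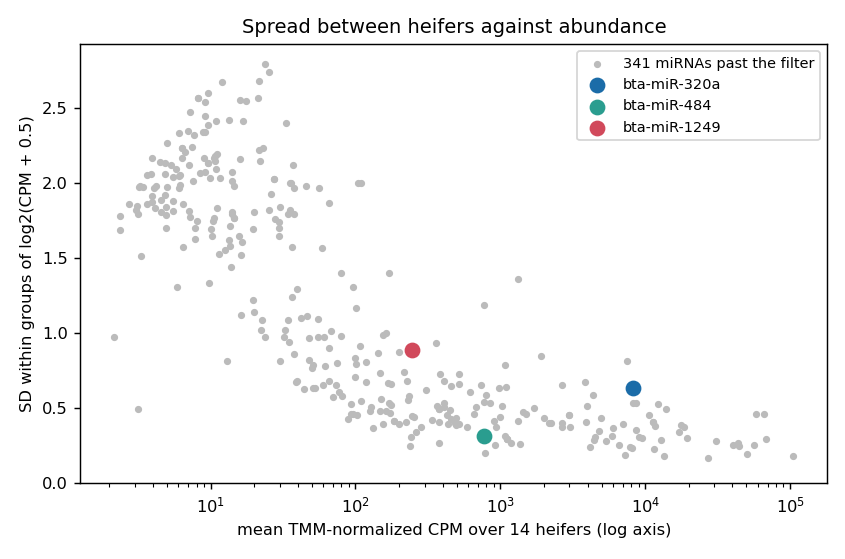
SD within groups of log2(TMM-normalized CPM + 0.5) against mean TMM-normalized CPM (log axis) for the 341 retained miRNAs, with the 3 members in colour. Spread falls with abundance. bta-miR-1249 (0.89) and bta-miR-320a (0.64) lie above the median of 0.41 of the 116 miRNAs at least as abundant as bta-miR-1249, and bta-miR-484 (0.31) lies below it. All 3 lie below the median of 0.91 over the 341.

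The first comparison asked whether the members differed between SFH and FH. The study's thresholds were an unadjusted p-value up to 0.05 together with a log2 fold change of 0.5 or more in either direction. Among the 3 tested members, 0 passed them in the quasi-likelihood test of edgeR. Of all 341 miRNAs, 13 (3.81%) passed, 5 higher and 8 lower in SFH. The split was 7 and 7 with upper-quartile scaling and 15 higher and 8 lower with limma-voom. With DESeq2, the tool the study used, 16 passed, 5 higher and 11 lower. After Benjamini-Hochberg adjustment 0 of 341 (0%) remained at 0.05 in edgeR, against 20 before adjustment at any fold change, and DESeq2 left 2. All 3 members had a fitted value below 0, against a median log2 fold change of 0.06 over the 341.

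bta-miR-320a averaged 9073 ± 5725 CPM in the 7 FH heifers, compared with 7224 ± 2293 CPM (SD) in the 7 SFH heifers. The log2 fold change was −0.41 (standard error 0.29, 95% interval −1.02 to 0.20), and edgeR gave an adjusted p of 0.915. An exact permutation test (two-sided, n = 7 per group) gave p = 0.443. This value rested on heifer 25: without it the FH mean was 6981 ± 1604 CPM (SD, n = 6), and the log2 fold change was 0.01 (95% interval −0.43 to 0.46). With the log2 total count as a covariate it was −0.19.

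For bta-miR-484 the means were nearly the same, 774 ± 241 CPM for FH against 764 ± 123 CPM for SFH (mean ± SD of 7 heifers each). The log2 fold change was −0.08 (standard error 0.20), with a 95% interval of −0.49 to 0.33 that takes in neither a doubling nor a halving. Its adjusted p in edgeR was 0.977, and the exact permutation test (two-sided, n = 7 per group) gave p = 0.795. Without heifer 25 the fitted value was 0.08.

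bta-miR-1249 had the largest fitted difference of the members, 288 ± 166 CPM for FH against 198.6 ± 94.9 CPM for SFH (mean ± SD of 7 heifers each). The log2 fold change was −0.64 (standard error 0.39, 95% interval −1.46 to 0.18), with an adjusted p of 0.890 in edgeR. The exact permutation test (two-sided, n = 7 per group) gave p = 0.212, and after TMM scaling 5 of the 7 SFH heifers lay below the FH median. The log2 fold change was −0.29 without FH heifer 25 and −0.43 without SFH heifer 28, and leaving out both, an alternative chosen after the values were seen, gave −0.20. The interval with all heifers takes in both no difference and a halving, which these 14 heifers do not tell apart.

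**Figure D3:**
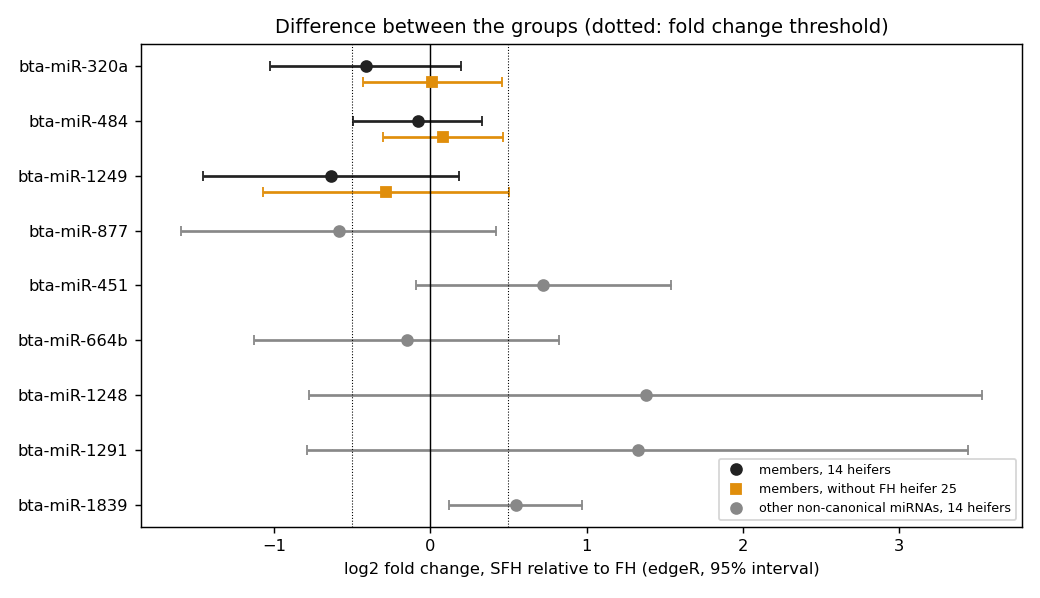
Log2 fold changes of SFH relative to FH with 95% intervals from edgeR, for the members with 14 heifers (black) and without FH heifer 25 (orange squares), and for 6 other non-canonical miRNAs (grey). Without heifer 25 the value of bta-miR-320a moves from −0.41 to 0.01 and that of bta-miR-1249 from −0.64 to −0.29, and the interval of bta-miR-1839 is the only one of the black and grey intervals that does not reach 0.

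Other miRNAs made outside the usual route were set beside the members. Of 6 mirtron names, 3 were in the count table and bta-miR-877 alone had counts, 57.9 ± 27.5 CPM for FH against 41.3 ± 31.5 CPM for SFH (mean ± SD of 7 heifers each, log2 fold change −0.59, standard error 0.48). bta-miR-451, a red cell miRNA whose hairpin is cut by Argonaute 2 in place of Dicer, stood at 1412 ± 531 CPM for FH against 2398 ± 2191 CPM for SFH (log2 fold change 0.72, standard error 0.39). Of 5 miRNAs derived from small nucleolar RNA, 4 passed the filter. Of the 6 tested in all, 1 passed the study's thresholds, upward in SFH, and 0 downward, beside 13 of all 341 miRNAs (3.81%). This was bta-miR-1839, at a log2 fold change of 0.55 (standard error 0.20, adjusted p = 0.480 in edgeR). The values were 1.38 for bta-miR-1248 (standard error 1.04), 1.33 for bta-miR-1291 (standard error 1.02) and −0.15 for bta-miR-664b (standard error 0.47), none past the thresholds. The list thus held values on both sides of 0.

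The second comparison asked whether the members rose and fell together across heifers, on log2(TMM-normalized CPM + 0.5). Of the 3 pairs that could be computed, bta-miR-320a and bta-miR-1249 co-varied. Their Pearson's r was 0.81 (permutation p = 0.0018, Benjamini-Hochberg adjusted over 3 pairs 0.0054) and Spearman's rho was 0.78 (permutation p = 0.00157, adjusted 0.00471) over 14 heifers. Without heifers 25 and 22, the 2 farthest from the median of bta-miR-320a, r was 0.85 (permutation p = 0.0006). The relation held within both groups, with r = 0.85 in FH (exact permutation p = 0.00377, n = 7) and r = 0.84 in SFH (exact permutation p = 0.00833, n = 7). However, r in FH was 0.66 when heifer 25 was left out, and rho in SFH was 0.64 (exact permutation p = 0.139, n = 7). Without FH heifer 25 and SFH heifer 28, at the ends of the bta-miR-1249 range, r was 0.67 (permutation p = 0.0187, n = 12), an alternative chosen after the values were seen. The labels name no preparation batch, so no value within batches could be given.

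bta-miR-484 did not show this. With bta-miR-320a its r was 0.51 (permutation p = 0.0642, adjusted 0.0963) and rho was 0.32 (permutation p = 0.265, adjusted 0.398) over 14 heifers. Without heifers 25 and 22, the 2 farthest from the median of bta-miR-320a, r was 0.05. It was 0.13 without heifer 25 alone and 0.49 without heifer 22 alone, so the value rested on heifer 25. Without FH heifer 29 it was 0.67 (permutation p = 0.0127, unadjusted) and without SFH heifer 28 it was 0.59 (permutation p = 0.0347, unadjusted). With bta-miR-1249 its r was 0.11 (permutation p = 0.702, adjusted 0.702) and rho was 0.01 (permutation p = 0.976, adjusted 0.976). That r turned to −0.39 without heifers 25 and 20. Whether the correlations of the pairs differ from each other was not tested.

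**Figure D4:**
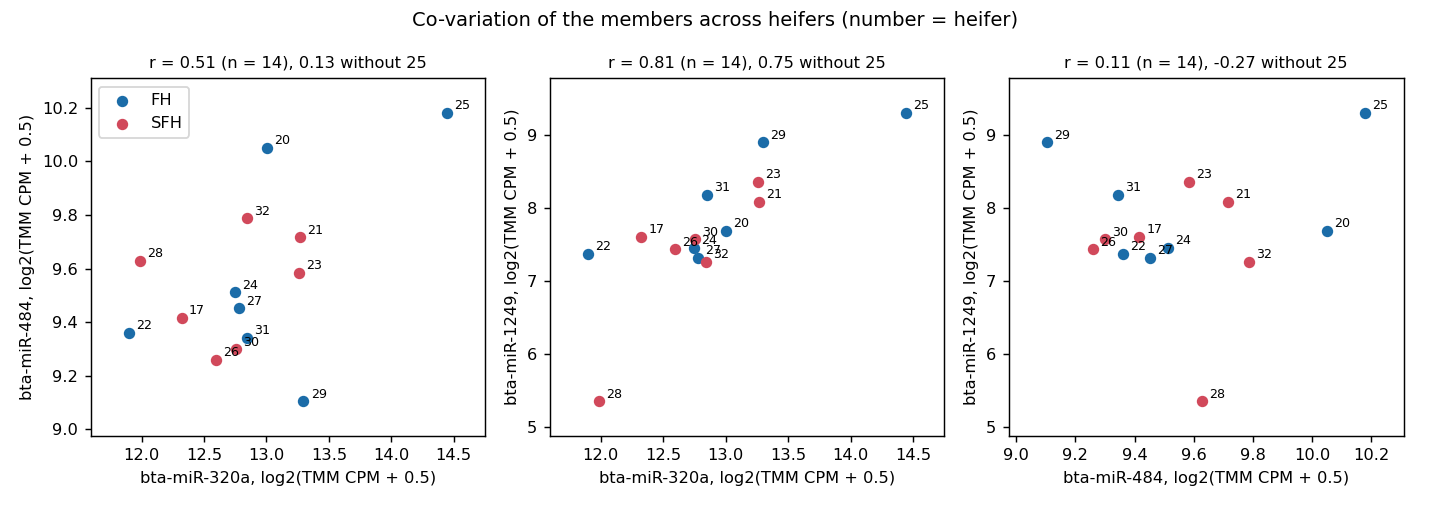
Log2(TMM-normalized CPM + 0.5) of each pair of members in the 14 heifers, blue for FH and red for SFH, numbered by heifer, with Pearson's r above each panel. The points of bta-miR-320a and bta-miR-1249 rise together (r = 0.81, and 0.75 without heifer 25), whereas those of bta-miR-484 and bta-miR-1249 scatter (r = 0.11, and −0.27 without heifer 25). SFH heifer 28 lies low in bta-miR-1249 for its bta-miR-320a, at a CPM ratio of 100 against 47.9 in heifer 32, the next highest.

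Among the 340 other retained miRNAs, bta-miR-1249 held place 6 by r in the order of likeness to bta-miR-320a, and bta-miR-320a held place 4 in the order for bta-miR-1249. The order is a description over 14 heifers, whose values share library totals and TMM factors. The miRNAs most like bta-miR-320a were bta-miR-423-5p (r = 0.92), bta-miR-296-3p (r = 0.89) and bta-miR-1306 (r = 0.89), and without heifer 25 their r was 0.89, 0.82 and 0.83. Heifer 25 stood high in them as well, with 19112 CPM of bta-miR-423-5p against a median of 6375 CPM in the other 13 heifers. The precursor of bta-miR-1306 overlaps *DGCR8*, which encodes the partner of Drosha, and that of bta-miR-423-5p overlaps *NSRP1*. The lowest r was −0.86, for bta-miR-2484.

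For bta-miR-1249 the highest r were 0.87 for bta-miR-1306, 0.86 for bta-miR-760-3p and 0.85 for bta-miR-200c (rho 0.74, 0.81 and 0.49), and the lowest was −0.81 for bta-miR-186. bta-miR-1306 was thus named for both bta-miR-320a and bta-miR-1249. It was 1 of the 13 miRNAs past the study's thresholds, at a log2 fold change of −0.58 (standard error 0.28, adjusted p = 0.828 in edgeR). The exact permutation test (two-sided) gave p = 0.0787 for bta-miR-1306, and heifer 25 had 862 CPM of it against a median of 376 CPM in the others. For bta-miR-484 the highest r were 0.85 for bta-miR-204, 0.70 for bta-miR-6123 and 0.68 for bta-miR-383, and the lowest was −0.74 for bta-miR-194. bta-miR-383 had a mean of 9.06 CPM but 61.5 CPM in heifer 25, and its r without that heifer was 0.53. The r of a member with all other miRNAs had medians of −0.04, 0.03 and −0.08 for bta-miR-320a, bta-miR-484 and bta-miR-1249. The spread was wide, with 5th to 95th percentiles of −0.65 to 0.67, −0.60 to 0.54 and −0.58 to 0.68 in the same order.

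The third comparison set the members against the marker sums of blood cell types and the total count, in 18 relations over 14 heifers. On TMM-normalized values, only bta-miR-320a with the general leukocyte sum passed the Benjamini-Hochberg adjustment over the 18, with r = −0.80 (permutation p = 0.0007, adjusted 0.0126). Spearman's rho was −0.73 (permutation p = 0.00381, adjusted 0.0686). On deposited CPM without TMM factors r was −0.90 (permutation p = 3e-05, unadjusted). Heifers with more bta-miR-320a had lower sums of these 4 leukocyte miRNAs. Without heifers 25 and 28, the farthest from the median of the sum, r was −0.57 (permutation p = 0.0527), so the relation rested in part on them. For single markers r was −0.81 with bta-miR-142-5p, −0.70 with bta-miR-146a, −0.67 with bta-miR-142-3p and −0.38 with bta-miR-155. Without heifer 25 these were −0.70, −0.33, −0.49 and −0.22. Heifer 25 had the lowest level of all 4 among the 14 heifers, for example 304 CPM of bta-miR-146a against a median of 1207 CPM in the others. By the lymphocyte sum it ranked 9 of the 14 from the highest, and by the myeloid bta-miR-223 it ranked 7. For bta-miR-320a, r was −0.16 with the lymphocyte sum (permutation p = 0.58, adjusted 0.960) and 0.10 with the myeloid bta-miR-223 (permutation p = 0.755, adjusted 0.960). CPM values are shares of 1 total, and the part of the leukocyte miRNAs in the level of bta-miR-320a was not tested.

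With the same sum, r was −0.65 for bta-miR-484 (permutation p = 0.0125, adjusted 0.075; rho = −0.64, permutation p = 0.0171, adjusted 0.154) and −0.65 for bta-miR-1249 (permutation p = 0.0119, adjusted 0.075; rho = −0.50, permutation p = 0.0693, adjusted 0.249). Without heifers 25 and 28 these were −0.60 and −0.26. The 2 members parted on deposited CPM without TMM factors. There r was −0.46 for bta-miR-484 (permutation p = 0.0919, unadjusted) and −0.75 for bta-miR-1249 (permutation p = 0.00244, unadjusted). For bta-miR-484 and the lymphocyte sum rho was −0.60 (permutation p = 0.0266, adjusted 0.160) while r was −0.31 (permutation p = 0.284, adjusted 0.639). Within SFH r was −0.86 (exact permutation p = 0.0125, unadjusted) and rho −0.82. Within FH r was −0.01 (exact permutation p = 0.976, unadjusted) and rho −0.39. With the red cell sum, r was −0.07 for bta-miR-320a, −0.01 for bta-miR-484 and −0.08 for bta-miR-1249 (permutation p = 0.809, 0.981 and 0.762). The single red cell markers pointed in opposite directions for bta-miR-320a, with r = −0.42 for bta-miR-451 and 0.44 for bta-miR-486 (−0.31 and 0.22 without heifer 25). With the platelet sum r was −0.50, −0.15 and −0.42 in the same order of members, and with the log2 total count it was 0.50, −0.07 and 0.33, all with adjusted p-values of 0.254 or more.

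**Figure D5:**
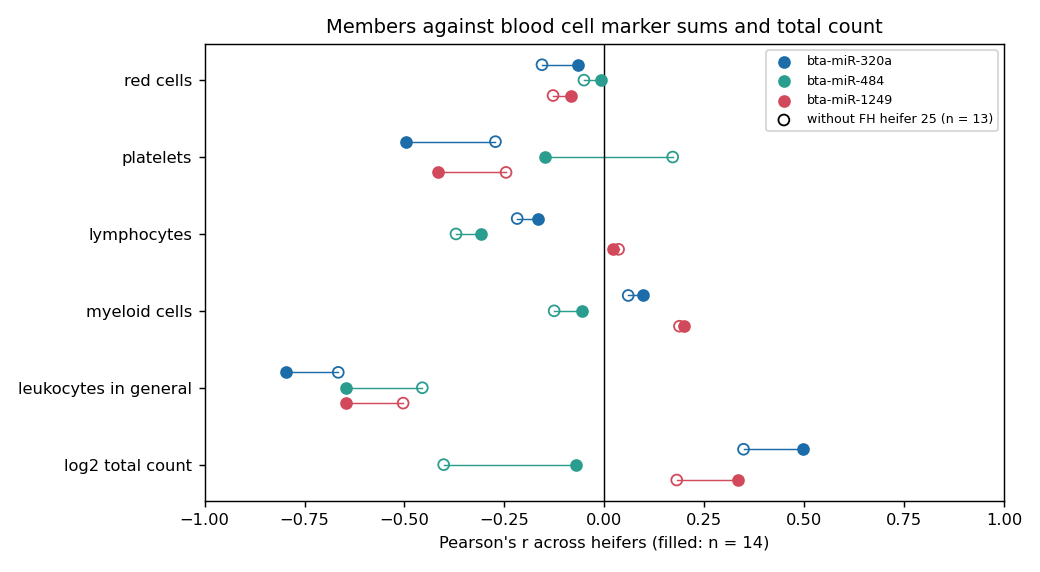
Pearson's r across heifers between each member and the log2 sums of 5 marker lists and the log2 total count, filled for 14 heifers and open without FH heifer 25. The general leukocyte sum lies at −0.80 for bta-miR-320a and −0.65 for the other two members, and each moves toward 0 without heifer 25, to −0.67, −0.46 and −0.50 for bta-miR-320a, bta-miR-484 and bta-miR-1249.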

How the data were processed

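Small RNA of PWBC from 14 heifers was sequenced, 1 library each. The authors trimmed adapters and end bases, mapped reads with miRDeep2 to ARS-UCD1.2 and to miRBase miRNAs, and deposited raw counts per mature miRNA and precursor. They also deposited CPM of the 341 miRNAs that passed their filter. The latter equalled counts divided by the total over these miRNAs in all heifers.

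For a name listed several times, the entry with the highest total was used. miRNAs reaching 1 CPM in 7 or more heifers were fitted with edgeR 4.0.16 (R 4.3.3, TMM, quasi-likelihood test, group as only term, Benjamini-Hochberg adjustment over all). Exact permutation tests used all 3432 arrangements, of which the smallest possible p is 0.000583, and correlations used 100000 resamples (exact pairings within 7 heifers). DESeq2 1.42.0 and limma 3.58.1 were alternatives, and Python 3.11.15 did the rest. Tests were tested on simulated data. No pair of libraries was identical.

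Named were the members, for each the 3 miRNAs with the highest and the 1 with the lowest r, overlapping or neighbouring genes, and list miRNAs. The members and lists were chosen with earlier results of these data known. No sequences were used. The labels name no preparation batch.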

Additional observations from a re-analysis of the deposited data

Results flagged for a closer look

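bta-miR-320a in FH heifer 25, at 21624 CPM, stood apart from the other FH heifers. On linear deposited CPM, the gap to the next heifer (8335 CPM) was 0.753 of the range of the group, above Dixon's critical value of 0.568 for 7 samples. After TMM scaling the next FH heifer was heifer 29, at 10058 CPM against 22313 CPM in heifer 25. The criterion was not applied to log2 values, on which the gap takes up less of the range, so the flag is given for the linear scale only. Both ends of 6 groups (3 members in FH and in SFH) were examined, and chance flags about 1 in 20 groups. In heifer 25 bta-miR-484 and bta-miR-1249 were the highest of their group without passing this criterion (0.0705 and 0.484 of the range). Heifer 25 was the highest or lowest of the 14 heifers for 88 of the 341 miRNAs, compared with 20 to 103 in the other heifers.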

How the results depend on the processing

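Under 10 alternatives with all 14 heifers (other scalings, DESeq2, limma-voom, other filters, every precursor entry, a covariate, adjusted p-values), none of the 3 tested members crossed the thresholds. The log2 fold changes were −0.51 to −0.19 for bta-miR-320a, −0.14 to −0.01 for bta-miR-484 and −0.75 to −0.39 for bta-miR-1249. With each heifer left out in turn they were −0.55 to 0.0131, −0.16 to 0.0814 and −0.83 to −0.29, with the upper value of each obtained without FH heifer 25. Without FH heifer 25 and SFH heifer 28 (chosen after seeing the data) bta-miR-320a reversed to 0.0282 and bta-miR-484 to 0.00102. In the exact test bta-miR-484 changed sign on the deposited CPM without TMM (difference 0.0253) and ranged from −0.12 to 0.0572 with 1 heifer left out. The number of miRNAs past both thresholds was 13, and 23 with limma-voom, 126 of 614 without the CPM filter, 20 with every precursor entry, 0 with adjusted p-values, and 11 to 21 with 1 heifer left out. Without the filter bta-miR-320b passed (edgeR's quasi-likelihood test, unadjusted p = 0.0336, adjusted 0.171) on 4 counts of 1 heifer. The cause of these changes was not tested.

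The r of bta-miR-320a and bta-miR-1249 was 0.75 to 0.85 with 1 heifer left out. For bta-miR-320a and bta-miR-484 it was 0.13 to 0.67, and for bta-miR-484 and bta-miR-1249 −0.27 to 0.32. The last was −0.39 without the 2 farthest heifers, −0.11 in SFH alone and −0.26 without heifers 25 and 28. Several weak relations with marker sums changed sign. For red cells, rho was 0.0066 and r without the 2 farthest 0.0780 (bta-miR-320a), rho was 0.20 (bta-miR-1249), and bta-miR-484 gave 0.0631 on deposited CPM, 0.0286 as rho, 0.37 without the 2 farthest and 0.00325 centred on group means. bta-miR-484 gave 0.0242 and 0.27 with platelets and 0.0234 with myeloid cells (deposited CPM, 2 farthest left out, deposited CPM). bta-miR-1249 and lymphocytes gave −0.0794 on deposited CPM and −0.0351 on centred values. With 1 heifer left out, r of bta-miR-484 was −0.11 to 0.26 (red cells), −0.33 to 0.17 (platelets), −0.20 to 0.0793 (myeloid cells) and −0.40 to 0.0855 (total count), and r of bta-miR-1249 was −0.13 to 0.0498 (red cells) and −0.13 to 0.11 (lymphocytes). No paired analysis was possible because the heifers of FH and SFH share no numbers.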
